A study of Mus musculus with 24 samples.

Results

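The comparison set 3 open chromatin peak lists of soleus against 3 of vastus intermedius at E18.5, late in gestation, 6 of the 24 lists of a study of mouse hindlimb muscles. All 6 came from male FVB/NJ embryos, an inbred strain with no allele or agent added. For each list the muscles of both legs were pooled from up to 5 embryos of 1 litter, and the same 3 litters gave soleus and vastus intermedius. The other 18 lists, 3 to a group, came from E18.5 gastrocnemius and vastus lateralis of those litters and from the same 4 muscles of 3 adult males. The study called soleus and vastus intermedius slow-biased, and gastrocnemius and vastus lateralis fast-biased. The assay was ATAC-seq, where a transposase cuts open DNA and leaves sequencing adapters in it. A list gives chromosome, start and end of each peak with no score, so a peak is a yes or a no for a list, and the lack of one is no proof of closed DNA. Nuclei came from undigested muscle, so that fewer cells of a type and fewer open copies per cell cannot be told apart.

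Soleus is a calf muscle that grows below the knee, and vastus intermedius is a thigh muscle of the quadriceps group. Muscle precursors enter the limb bud from the somites, whereas connective tissue cells arise in the limb itself and carry positional genes such as the Hox clusters, Tbx and Meis factors, which help to place and shape each muscle. Slow and fast fibres differ in their myosin and troponin isoforms and in regulators such as Sox6 and Prox1, and fibre types are still being set up before birth.

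The 6 lists merged into 463316 regions; 40561 had a call in all 6 and 34379 in exactly 3. A region called in 3 of 3 lists of one muscle and 0 of 3 of the other is named separated here. Soleus had 1114 separated regions, 3.24% of those called in exactly 3 lists, and vastus intermedius had 1394, 4.05%. Soleus 2 was the longest of the 24 lists, so the comparison was also made with the first 115333 rows of each list, the length of the shortest. That gave 1150 separated regions in soleus, 5.13% of 22432 in exactly 3 lists, and 789 in vastus intermedius, 3.52%. Just outside the rule with full lists, 3775 regions were called in 3 soleus lists and 1 vastus intermedius list, and 11544 in 2 soleus lists and 0 vastus intermedius lists. On the other side, 4133 regions were called in 1 soleus list and 3 vastus intermedius lists, and 13731 in 0 soleus lists and 2 vastus intermedius lists.

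The muscles did not stand out from other divisions of the 6 lists into 3 and 3. The 18 sets of 3 lists drawn from both muscles had 299 to 5502 regions of their own with full lists, with a median of 1218.5. Of these 18 sets, 9 had more regions than soleus and 8 had more than vastus intermedius. With the first 115333 rows the mixed sets ran from 542 to 3678 around a median of 940, with 4 sets above soleus and 11 above vastus intermedius. Counting both sides of a division, soleus against vastus intermedius ranked 7 of 10 with 2508 regions, against 6552 for soleus 1, soleus 2 and vastus intermedius 1 against the other 3 lists.

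**Figure D1:**
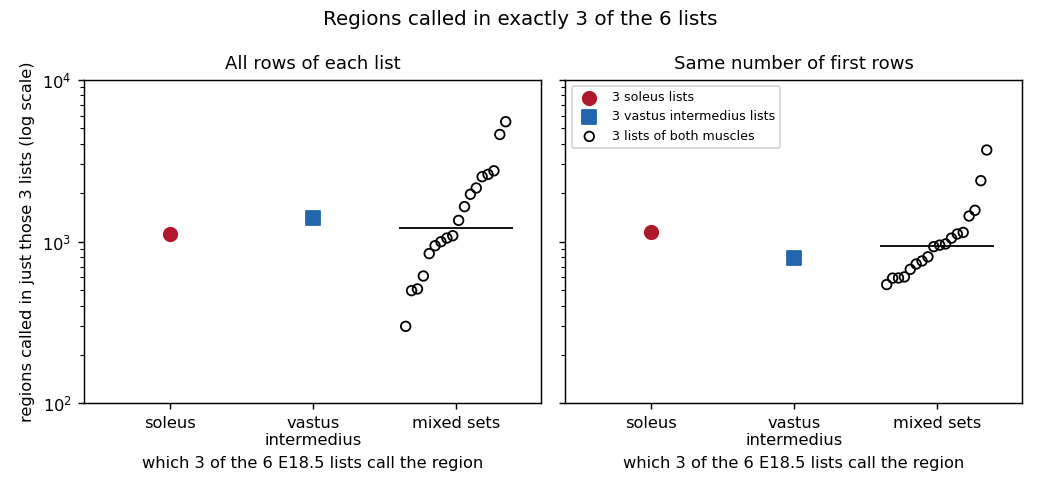
Regions called in exactly 3 of the 6 E18.5 lists and in no other of the 6 (log scale), for the 3 soleus lists (red circle), the 3 vastus intermedius lists (blue square) and the 18 mixed sets of 3 lists (open circles, line at their median), with all rows on the left and the first 115333 rows on the right. The soleus count (1114 and 1150) and the vastus intermedius count (1394 and 789) lie within the range of the mixed sets.

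The promoter of Hand2 was called in all 3 soleus lists and no vastus intermedius list, and that of Myom1 in no soleus list and all 3 vastus intermedius lists. Hand2 encodes a basic helix-loop-helix factor of the posterior limb bud, and Myom1 encodes myomesin of the sarcomere's M-band. These windows were looked at after maps of the peaks had been drawn. Each window was the RefSeq promoter on GRCm38.p6, 250 bases before the gene start to 50 after it, and counted as called in a list that had a peak on 1 bp of it or more. The sequences are shown because the calls of the muscles part there by more than the edge of a peak. They read 5′ to 3′ along the gene, with capitals for each CANNTG, the E-box that factors of the Hand2 and MyoD type recognise, searched on both strands.
Hand2, chr8:57320733-57321032, + strand: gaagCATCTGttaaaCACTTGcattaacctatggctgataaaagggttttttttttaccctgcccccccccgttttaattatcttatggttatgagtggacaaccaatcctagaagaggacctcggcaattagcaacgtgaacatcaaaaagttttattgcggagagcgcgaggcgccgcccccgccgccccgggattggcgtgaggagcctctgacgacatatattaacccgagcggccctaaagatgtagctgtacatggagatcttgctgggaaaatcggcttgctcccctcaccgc
Myom1, chr17:71019307-71019606, + strand: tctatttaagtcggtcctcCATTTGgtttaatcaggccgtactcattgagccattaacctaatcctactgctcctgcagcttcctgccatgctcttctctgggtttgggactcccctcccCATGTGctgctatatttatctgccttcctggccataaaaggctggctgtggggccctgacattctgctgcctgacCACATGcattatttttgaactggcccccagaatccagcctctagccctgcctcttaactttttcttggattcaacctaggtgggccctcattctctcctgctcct
Of 32851 promoter windows in the RefSeq table, 72.3% hold at least 1 CANNTG; the Hand2 window holds 2 and Myom1 holds 3. CCAAT, on either strand, occurs 2 times at Hand2 and 0 times at Myom1, and 37.4% of all windows hold it. GGGCGG, a GC box, occurs 2 times at Hand2 and 0 times at Myom1, and 35.7% of all windows hold it. TATAAA occurs in neither sequence and in 13.6% of all windows.

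At the Hand2 promoter the overlapping peak stood at rows 44108, 31182 and 77819 of the soleus lists. Row numbers are given because the lists run from wide to narrow peaks, although the sources used here do not state what orders them. No vastus intermedius list had a peak there, and the nearest peaks of lists 1 to 3 lay 825, 2511 and 7083 bp from the window. At Myom1 the nearest soleus peaks lay 7922, 3380 and 1824 bp away, while the window was overlapped at rows 69497, 70157 and 102896 of the vastus intermedius lists. Hand2 and Myom1 divided the muscles with full lists and with the first 115333 rows.

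Windows of 3 other positional genes divided the muscles too, but in at least 1 list of each the division rested on the edge of a peak. Hoxd11, a homeobox gene of the HoxD cluster that patterns the limb, had its window called in 3 soleus and 0 vastus intermedius lists, but a peak of vastus intermedius 1 began 1 bp outside it and the nearest peaks of lists 2 and 3 lay 1873 and 713 bp away. Nr2f1, an orphan nuclear receptor gene, was called in 3 soleus and 0 vastus intermedius lists, whose peaks lay 39, 25 and 33 bp outside. The neighbouring gene Hoxd12 was called in 3 vastus intermedius lists and, with the first 115333 rows, in 0 soleus lists; the nearest soleus peaks lay 1537, 0 and 52 bp away, the overlapping one of soleus 2 standing at row 199669. With gaps this small, these calls do not show that the promoters of Hoxd11, Hoxd12 or Nr2f1 differed between the muscles.

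In the neighbouring muscles of the same litters, whose peaks were on the maps seen beforehand, the window of Hand2 was called in 3 of 3 lists of gastrocnemius, a calf muscle, and 1 of 3 of vastus lateralis, a thigh muscle. The other vastus lateralis lists had peaks 1099 and 76 bp from the Hand2 window, so these neighbours overlapped. Myom1 was called in 1 of 3 gastrocnemius and 0 of 3 vastus lateralis lists. Hoxd11 was called in 3 gastrocnemius and 0 vastus lateralis lists, with a vastus lateralis peak again 1 bp outside, and Hoxd12 in 0 gastrocnemius and 3 vastus lateralis lists, with gastrocnemius peaks 67, 321 and 18 bp outside. In the adult, the Hand2 window was called in 0 of 12 lists and the Myom1 window in 2 of 3 soleus, 3 of 3 vastus intermedius, 3 of 3 gastrocnemius and 3 of 3 vastus lateralis lists.

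Over all promoter windows, 64 of 1026 called in exactly 3 lists were separated in soleus (6.24%) and 16 in vastus intermedius (1.56%). With the first 115333 rows the counts were 77 (8.86%) and 14 (1.61%) of 869. The 18 mixed sets held 5 to 272 windows with full lists, with a median of 32.5; 4 sets were above soleus and 3 below vastus intermedius. How many of the counted windows had a peak just outside them in the other muscle was not measured. Of the 213 listed genes with a window, 12 windows were called in exactly 3 lists, 3 of them separated in soleus and 0 in vastus intermedius, and 145 windows were called in all 6 lists. Windows of other genes separated in soleus with both list lengths included Drd2, the dopamine receptor gene, Lyl1, a blood and endothelial transcription factor gene, and Celsr3, a cadherin gene of axon guidance; these 3 were picked after their values were seen.

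Beyond its promoter, Hand2 had 2 separated soleus regions upstream, within the gene of its antisense neighbour Hand2os1. One region, chr8:57312089-57313229, has its centre at -8324 bp from the Hand2 start, and the other, chr8:57313707-57314783, at -6738 bp. The first stood at rows 31369, 38530 and 111382 of the soleus lists, and the second at rows 67262, 55569 and 94681. Both stayed separated with the first 115333 rows. The first was also called in 3 of 3 gastrocnemius and 1 of 3 vastus lateralis lists, and in 2 of 3 adult soleus and 0 of 3 adult vastus intermedius lists. The second was called in 0 of 3 gastrocnemius and 1 of 3 vastus lateralis lists, and in 1 adult soleus and 0 adult vastus intermedius lists.

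**Figure D2:**
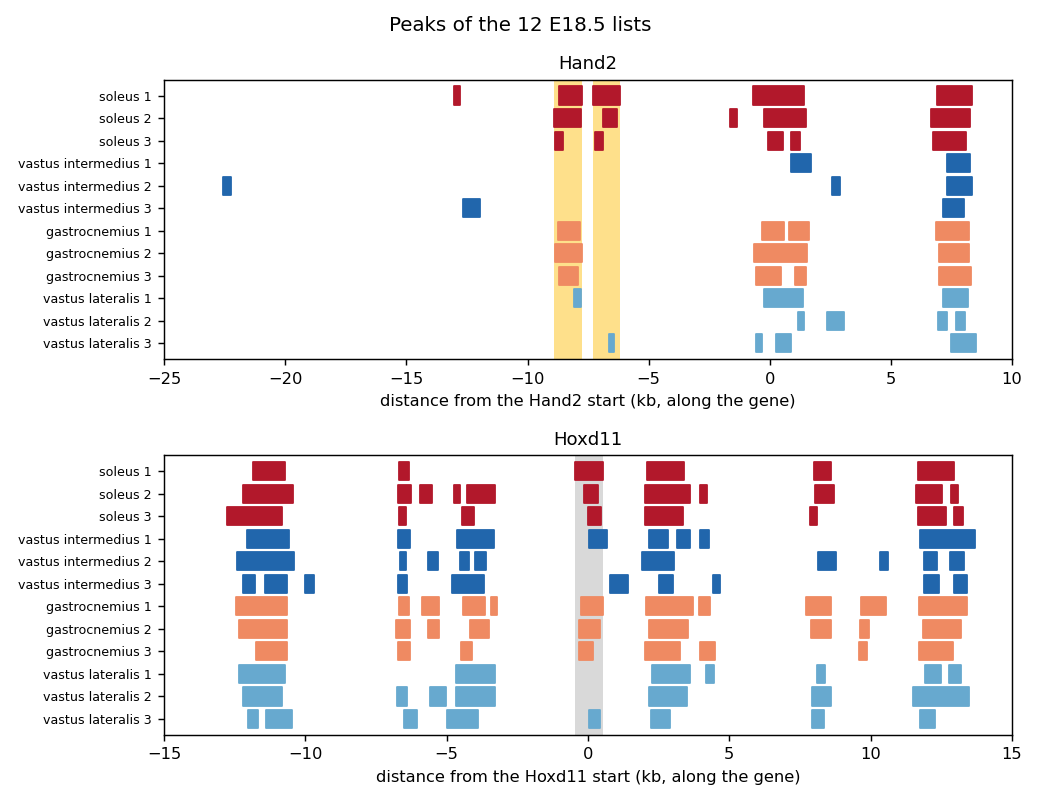
Peaks (bars) of the 12 E18.5 lists against distance in kb from the Hand2 start and the Hoxd11 start, with soleus lists at the top, then vastus intermedius, gastrocnemius and vastus lateralis. Yellow bands are regions separated with full lists and the grey band one separated with the first 115333 rows. Soleus lists hold peaks in both Hand2 bands and in the Hoxd11 band. The 3 gastrocnemius lists also have peaks in the Hoxd11 band and in the Hand2 band farther from the start. Each Hand2 band holds a peak of 1 vastus lateralis list. In the Hoxd11 band vastus intermedius 1 and vastus lateralis 3 have one too.

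Counted over the whole locus, the gene body plus 10 kb on each side, Hand2 had 6, 7 and 6 called regions in soleus lists 1 to 3, against 3, 3 and 2 in vastus intermedius. The muscles did not overlap, and soleus was higher in 3 of 3 litters. The log2 ratio after scaling to the called regions of each list was 1.15 (SE 0.29, 95% interval 0.54 to 1.76), with a limma p of 0.00091 and a Benjamini-Hochberg adjusted p of 0.999 over 25308 loci. Hand2 had the largest t toward soleus of all loci tested and still did not pass. The adult lists, from other animals, were not used to choose it: the Hand2 locus held 4, 6 and 4 regions in adult soleus and 1, 1 and 1 in adult vastus intermedius. Scaled to 100000 called regions of a list, that was 2.81 ± 0.25 in adult soleus and 0.841 ± 0.094 in adult vastus intermedius (SD, n = 3 each), again without overlap. In E18.5 gastrocnemius the locus held 5, 5 and 5 regions, against 4, 5 and 3 in vastus lateralis, which overlapped.

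Isl1, a LIM-homeobox gene of the early hindlimb and of motor neurons, was the other positional gene with 2 separated soleus regions. The regions chr13:116297022-116297797 and chr13:116302570-116303659 have their centres 12278 and 6573 bp from the gene's start, at rows 39541, 112400 and 67956 and at rows 117049, 61642 and 104229 of the soleus lists. Each was called in 2 of 3 gastrocnemius and 0 of 3 vastus lateralis lists, and the second was not separated with the first 115333 rows. The Isl1 locus held 3, 4 and 6 regions in soleus, against 2, 2 and 3 in vastus intermedius, with a log2 ratio of 0.78 (SE 0.37). The scaled values of the muscles overlapped, though soleus was higher within each litter. E18.5 gastrocnemius had 3, 4 and 3 regions at Isl1, against 1, 2 and 2 in vastus lateralis, which did not overlap when scaled.

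Alx4 and Tbx15, both encoding transcription factors of limb mesenchyme, had more called regions in vastus intermedius. The Alx4 locus held 6, 16 and 7 regions in soleus, against 16, 17 and 14 in vastus intermedius, with a log2 ratio of -0.62 (SE 0.25, adjusted p = 0.999 in limma). Tbx15 held 8, 13 and 9 in soleus, against 14, 16 and 12 in vastus intermedius, with a log2 ratio of -0.32 (SE 0.24). Scaled values did not overlap at either gene, also with the first 115333 rows. Tbx4, the hindlimb T-box gene, went the other way with 12, 18 and 7 regions in soleus, against 10, 10 and 8 in vastus intermedius (log2 ratio 0.42, SE 0.25), but the muscles overlapped with the first 115333 rows. Prrx1, a mesenchymal homeobox gene, had a region 35623 bp away, chr1:163208729-163209496, at rows 32393, 38195 and 37725 of the vastus intermedius lists and in no soleus list. A separated vastus intermedius region 116187 bp from Shox2, a homeobox gene of the proximal limb skeleton, was not separated with the first 115333 rows.

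Of the 31 genes listed for limb axis and positional identity, all 31 loci were tested and 0 passed in either direction. Hand2 and Tbx4 were higher in soleus without overlap and Alx4 and Tbx15 in vastus intermedius. Over all 25308 loci, 1228 were higher in soleus without overlap (4.85%) and 774 in vastus intermedius (3.06%). Those shares turned round with the first 115333 rows, to 2.89% of 21825 loci in soleus and 5.99% in vastus intermedius. The median log2 ratio of the list was 0.03, equal to the 0.03 over all loci. Of its 59 regions called in exactly 3 lists, 5 were separated in soleus and 2 in vastus intermedius, or 8.47% and 3.39%, against 3.24% and 4.05% of all such regions. Of the 16 genes of the 5′ HoxA, HoxC and HoxD clusters, none was without overlap with full lists, and ratios ran from -0.21 to 0.54. Hoxc11 had the highest, with 6, 6 and 5 regions in soleus and 3, 7 and 3 in vastus intermedius, and Hoxd11 held 5, 8 and 6 in soleus and 6, 8 and 7 in vastus intermedius.

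No locus in the genome passed the test of soleus against vastus intermedius, 0 of 25308 (0%) by limma at an adjusted p of 0.05. Unadjusted p fell under 0.05 for 395 loci higher in soleus and 409 higher in vastus intermedius. With the litter as a block those counts were 654 and 677, with 0 loci past the threshold. A count of 0 does not show that the muscles were alike, because the test finds mostly large changes. On simulated counts without added spread between litters, the test without the block called 8% of loci changed 2-fold. It called 32% of those changed 4-fold and 94% of those changed 8-fold. After Hand2, the largest t toward soleus belonged to the lncRNA Gm30763, to Gabrr3, a GABA receptor subunit gene, and to Gm35041. Gabrr3 had 7, 8 and 12 regions in soleus and 4, 3 and 4 in vastus intermedius, with a log2 ratio of 1.21 (SE 0.33). The remaining 6 loci by this rule were Gm31333, Depdc1b, Taf2, 4930573G07Rik, Gm39384 and Gm52727, with ratios of 0.92 to 1.29.

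Toward vastus intermedius, Gstm3, a glutathione S-transferase gene, had the largest t. It held 1, 2 and 2 regions in soleus, against 7, 7 and 5 in vastus intermedius, with a log2 ratio of -1.36 (SE 0.32, adjusted p = 0.999 in limma). In the adult it held 1, 4 and 3 regions in soleus and 3, 6 and 3 in vastus intermedius, or 1.54 ± 0.71 and 3.28 ± 1.10 per 100000 called regions (SD, n = 3 each), again without overlap. Ica1l held 1, 3 and 2 regions in soleus and 7, 9 and 4 in vastus intermedius, and Mgat4c, a glycosyltransferase gene, held 1, 3 and 3 and 5, 11 and 8 in the same muscles. Atp1b1, the beta subunit of the sodium pump, held 1, 2 and 3 regions in soleus and 7, 8 and 5 in vastus intermedius. The other 6 were 1700112H15Rik, Ecd, Atp13a4, Gm20616, Adgrg6 and Phf11d, with ratios of -1.59 to -1.04.

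These 20 loci were then set against the adult muscles, with no test of them as a group. Of the 10 toward soleus, 2 were higher in adult soleus without overlap, Hand2 and Gm35041, against 4.53% of all 25308 loci. Of the 10 toward vastus intermedius, 1, Gstm3, was higher in adult vastus intermedius without overlap, against 14.5% of all loci, and 1, Mgat4c, was higher in adult soleus. In the first 115333 rows, 2 of the 10 toward soleus were higher in adult soleus without overlap and 3 of the 10 toward vastus intermedius in adult vastus intermedius, with 0 on the opposite sides, against 2.32% and 17.6% of all loci. In E18.5 gastrocnemius against vastus lateralis, 1 of the 20, Atp1b1, did not overlap and was higher in gastrocnemius, the opposite side from the choice; gastrocnemius was higher without overlap at 4.92% of all loci and vastus lateralis at 4.2%. Single loci of 3 against 3 lists cannot give an exact p below 0.1.

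**Figure D3:**
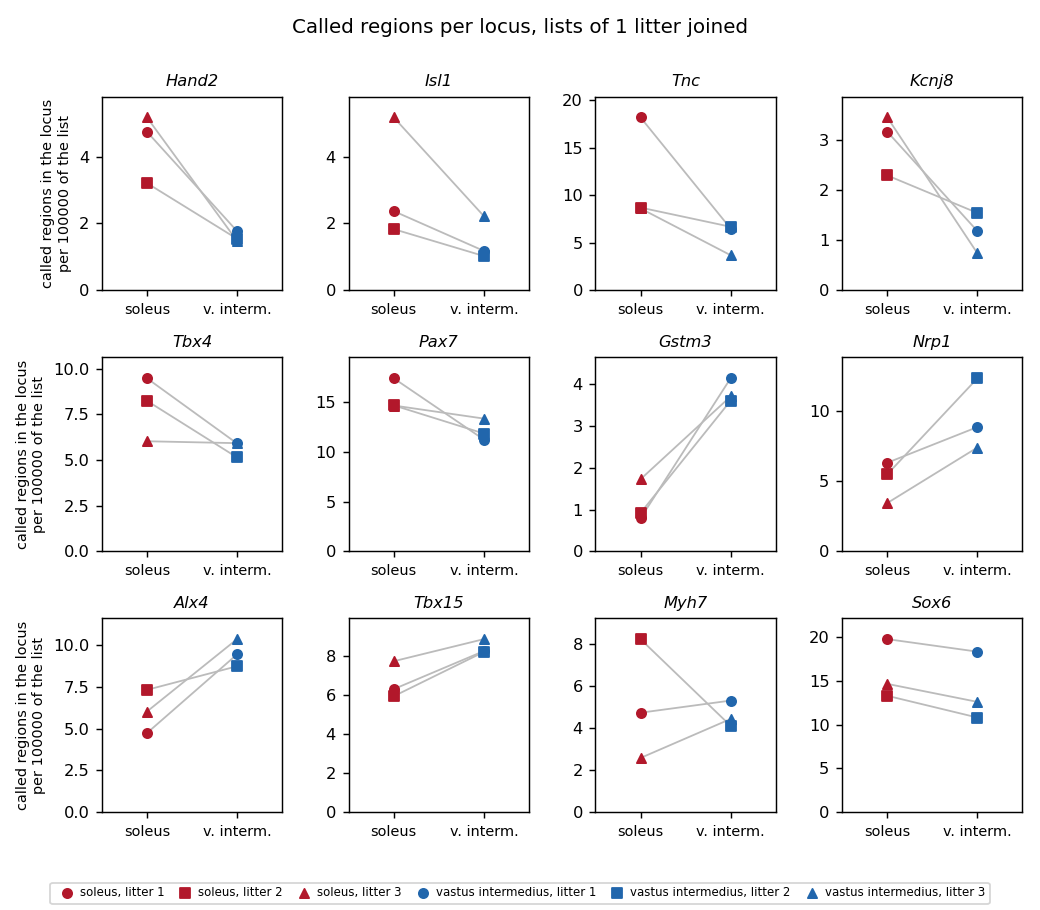
Called regions in 12 loci per 100000 called regions of the list, in soleus (red, left) and vastus intermedius (blue, right), with the 2 lists of a litter joined by a line and the marker shape giving the litter. Hand2, Tnc, Kcnj8, Tbx4 and Pax7 are higher in soleus and Gstm3, Nrp1, Alx4 and Tbx15 in vastus intermedius without overlap, whereas Isl1, Myh7 and Sox6 overlap.

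At genes of the fibre programme few loci were without overlap. Myh7, which encodes the slow myosin heavy chain, had 6, 18 and 3 called regions in soleus, against 9, 8 and 6 in vastus intermedius, with a log2 ratio of 0.03 (SE 0.32). Tnni1, slow troponin I, had 12, 11 and 9 in soleus, against 9, 11 and 10 in vastus intermedius (log2 ratio 0.23, SE 0.27), and Tnnt1, slow troponin T, had 6, 5 and 5, against 5, 10 and 6 (-0.15, SE 0.30). Myh2, the fast oxidative 2A myosin, had 1, 3 and 0 regions in soleus and 3, 4 and 2 in vastus intermedius, without overlap but on few calls (log2 ratio -0.98, SE 0.55). The slow fibre list also held Myh2, although its product is a fast myosin. Of the 18 loci of that list tested, 0 were higher in soleus without overlap and 1, Myh2, in vastus intermedius. Of 13 fast fibre loci, these were 0 and 0. Over all loci these shares were 4.85% and 3.06%. The medians were -0.03 for the slow and 0.03 for the fast list on the log2 scale. The widest ratios of both lists were -0.98, that of Myh2, and 0.60.

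The regulators Sox6 and Prox1, which repress fast or slow genes or promote slow fibres in mouse muscle, overlapped between the muscles with full lists. Sox6 had 25, 29 and 17 regions in soleus and 31, 21 and 17 in vastus intermedius (log2 ratio 0.20, SE 0.24), and Prox1 had 9, 12 and 9 in soleus and 9, 12 and 7 in vastus intermedius (0.25, SE 0.25); Prox1 was higher in soleus without overlap with the first 115333 rows. Eya4, a cofactor of the Eya family, held a region separated in vastus intermedius, chr10:23233410-23233847 inside the gene, at rows 42054, 29502 and 74025. That region was in 0 of 3 gastrocnemius and 0 of 3 vastus lateralis lists, and in 1 adult vastus intermedius and 0 adult soleus lists. Of 33 regulator loci tested, 0 were higher in soleus without overlap, against 4.85% of all loci, and 2 in vastus intermedius, against 3.06%. The 2 were Dio2 with 2, 3 and 1 regions in soleus and 4, 5 and 3 in vastus intermedius, and Vgll3 with 2, 3 and 2 and 5, 4 and 3. Dio2 encodes the deiodinase that makes active thyroid hormone, and Vgll3 a cofactor of TEAD factors. Their log2 ratios were -0.68 (SE 0.35) and -0.47 (SE 0.32).

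Structural muscle loci were described by locus and by single region. Ttn, the sarcomere's titin, held 11, 23 and 11 regions in soleus, against 12, 15 and 7 in vastus intermedius (log2 ratio 0.50, SE 0.24), without overlap when scaled, while its single separated region was in vastus intermedius, with full lists only. Casq2, calsequestrin of slow and cardiac muscle, had a separated region in vastus intermedius, chr3:102141530-102142048, which was in 3 of 3 gastrocnemius and 1 of 3 vastus lateralis lists and was not separated with the first 115333 rows. Embryonic myosin Myh3 had 7, 11 and 6 regions in soleus and 9, 11 and 5 in vastus intermedius, and neonatal Myh8 had 2, 3 and 2 and 3, 2 and 0. None of the 14 loci of the embryonic and neonatal list was without overlap. Over all loci, 4.85% were higher in soleus and 3.06% in vastus intermedius without overlap.

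At genes of the neuromuscular junction each muscle had 1 separated region among 31 called in exactly 3 lists, or 3.23% each. Over all such regions the shares were 3.24% in soleus and 4.05% in vastus intermedius. Colq, the collagen tail that anchors acetylcholinesterase, held the soleus region chr14:31557466-31558244 at rows 66132, 70330 and 81696. It was absent from all 3 vastus intermedius lists but was called in 3 of 3 gastrocnemius, 2 of 3 vastus lateralis and all 12 adult lists. Musk, the receptor kinase that clusters acetylcholine receptors, held the vastus intermedius region chr4:58330981-58331900 at rows 29213, 30403 and 107293. The Musk region was called in 2 of 3 lists of gastrocnemius, vastus lateralis, adult soleus and adult vastus intermedius. Of the 14 loci of this list 0 were without overlap, against 4.85% of all loci higher in soleus and 3.06% in vastus intermedius. The median log2 ratio of the list was -0.03.

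Progenitor loci went both ways. Pax7, the satellite cell factor, had 22, 32 and 17 regions in soleus, against 19, 23 and 18 in vastus intermedius, without overlap when scaled (log2 ratio 0.34, SE 0.21), but the muscles overlapped with the first 115333 rows. Eya3, of the Eya family of cofactors, was higher in vastus intermedius without overlap, with 6, 11 and 4 regions in soleus and 9, 13 and 8 in vastus intermedius (-0.40, SE 0.26). Lbx1, needed for migrating precursors of limb muscle, had a separated soleus region 941 bp from the gene, chr19:45231079-45231743, at rows 58028, 59037 and 120043, which was not separated with the first 115333 rows, and 6, 6 and 3 regions in its locus in soleus, against 7, 6 and 5 in vastus intermedius. The myogenic progenitor list had 3 separated regions on each side among 54 in exactly 3 lists, 5.56% each, against 3.24% in soleus and 4.05% in vastus intermedius over all regions, and 2 and 0 of 24 with the first 115333 rows.

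Matrix and guidance genes went both ways. Tnc, the tenascin of tendon and muscle attachment, had 23, 19 and 10 regions in soleus, against 11, 13 and 5 in vastus intermedius, without overlap (log2 ratio 0.95, SE 0.30, adjusted p = 0.999 in limma). In the adult, Tnc held 8, 14 and 8 regions in soleus and 6, 4 and 6 in vastus intermedius, and the scaled values overlapped. E18.5 gastrocnemius held 12, 9 and 6 regions at Tnc and vastus lateralis 11, 13 and 10, also with overlap. Lama2, the laminin chain of the muscle basement membrane, was lower in soleus without overlap, with 12, 18 and 10 regions in soleus and 18, 28 and 13 in vastus intermedius (-0.36, SE 0.23). Nrp1, a receptor for semaphorins and VEGF, held 8, 12 and 4 regions in soleus, against 15, 24 and 10 in vastus intermedius (-0.84, SE 0.28). Unc5c, a netrin receptor gene, went the other way with 8, 13 and 8 in soleus and 8, 8 and 6 in vastus intermedius (0.47, SE 0.25). Slit3, a ligand of Robo receptors, had 2 separated regions in soleus and 1 in vastus intermedius among 102 regions in at least 2 lists, and 1 in each with the first 115333 rows. Of 67 matrix regions in exactly 3 lists, 6 were separated in soleus and 3 in vastus intermedius, and of 105 guidance regions, 5 and 7, against 3.24% and 4.05% of all regions. On the first 115333 rows these were 3 and 2 of 43 matrix regions and 2 and 3 of 65 guidance regions, against 5.13% and 3.52%.

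Marker loci of the fibres and of other cell types had calls in both muscles. A region called in all 6 lists lay in 10 of 12 loci of skeletal muscle fibre markers, 14 of 14 of fibro-adipogenic cells and fibroblasts, 11 of 12 of endothelium, 9 of 10 of smooth muscle and pericytes, 10 of 12 of Schwann cells and neurons, 7 of 12 of immune cells, 11 of 14 of cartilage and bone, 5 of 9 of tendon and 5 of 10 of skin, and no marker locus was at 0 in all 6 lists. With 40561 regions called in all 6 lists, such calls do not show which cell types were present. Summed and scaled to 100000 called regions, cartilage and bone loci ran from 86.1 to 93.4 in soleus and from 62.9 to 86.4 in vastus intermedius, and smooth muscle and pericyte loci from 63.7 to 75.8 in soleus and from 63.7 to 69.9 in vastus intermedius. Of 12 cartilage and bone loci tested, 2 were higher in soleus without overlap and 0 in vastus intermedius, against 4.85% and 3.06% of all loci, with a median log2 ratio of 0.05 and a lowest of -0.37. These were Matn1 (8, 13 and 5 regions in soleus, 7, 6 and 5 in vastus intermedius) and Alpl (12, 18 and 13, against 12, 15 and 8). Of 10 smooth muscle and pericyte loci, 1 was higher in soleus without overlap, the pericyte channel gene Kcnj8, with 4, 5 and 4 regions in soleus and 2, 3 and 1 in vastus intermedius (log2 ratio 1.02, SE 0.34). In vastus intermedius 1 of 12 endothelial loci, the receptor gene Tek, and 1 of 14 fibroblast loci, the matrix gene Dpt, were higher without overlap, and 0 of either list in soleus; the medians of both lists were -0.01 and -0.00. Listed genes without overlap that are named here were picked for it after their values were seen, apart from Hand2, Tbx4, Tbx15, Pax7 and Myh2, which other rules name. With the first 115333 rows Hand2, Tnc, Unc5c, Alx4, Tbx15, Nrp1, Dio2, Vgll3 and Dpt stayed without overlap, whereas Ttn, Pax7, Tbx4, Kcnj8, Matn1, Alpl, Tek, Eya3 and Lama2 overlapped and Myh2 had too few calls to be tested. The part of the other cell types in the results above was not tested.

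By number of separated regions within a locus, Snd1 led for soleus with 3 and also had 2 in vastus intermedius. Kcnmb1, Atg13, Arhgap1, Fcrl6, Csf2rb2 and Gm7628 had 2 each in soleus. For vastus intermedius, Sntb2, which encodes a syntrophin of the dystrophin complex, Dchs2, a large cadherin gene, Kcnma1, a potassium channel gene, and Gabbr2, a GABA-B receptor gene, had 3 each and 0 in soleus. Sntb2 held 12, 20 and 6 called regions in soleus, against 23, 23 and 16 in vastus intermedius (log2 ratio -0.65, SE 0.25), and Dchs2 16, 23 and 14, against 30, 30 and 22 (-0.47, SE 0.21). Both stayed without overlap with the first 115333 rows, and Kcnma1 did not. Gstm3, Speer4a, Myt1, Cant1, Gm35598 and Cacnb3 had 2 each in vastus intermedius, as did Cdh4 and Tcf4, which also had 1 in soleus.

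Regions that stayed separated with full lists, the first 115333 rows and a cover of at least 50% of the region numbered 170 in soleus and 163 in vastus intermedius. The widest in soleus lay inside Ppm1h (1816 bp), 3425401B19Rik (1504 bp), Gm12610 (1424 bp) and Wdfy3 (1396 bp), and one of 385 bp lay 52772 bp from Col5a2, a fibrillar collagen gene. Gm12610's region was in 3 of 3 gastrocnemius and 0 of 3 vastus lateralis lists. In vastus intermedius they included a region of 1539 bp near an end of Dapk1, a death-associated kinase gene, and one of 1393 bp inside Dclk1, a microtubule kinase gene, at rows 15743, 20648 and 34406. The Dclk1 region was in 3 of 3 gastrocnemius and 3 of 3 vastus lateralis lists.

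Separated soleus regions lay within 1 kb of a gene end more often than those of vastus intermedius, 141 of 1114 or 12.7% (95% exact binomial interval 10.8% to 14.8%) against 109 of 1394 or 7.82% (6.46% to 9.36%). The intervals cover counting error only, and the share was not measured for the 18 mixed sets of lists. Separated regions were also wider in soleus, with a median of 760 bp against 667 bp in vastus intermedius. With the first 115333 rows the medians were 820 and 727 bp. A wider region reaches a gene end more easily, and the part of width in these shares was not tested. Regions called in exactly 3 lists had 9.53% there and those in all 6 lists 37.4%, so separated regions of both muscles lay mostly in genes (52.4% in each) or between them. With the first 115333 rows the shares were 13.9% in soleus and 8.62% in vastus intermedius.

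The separated regions were then followed in the 18 lists that took no part in choosing them. For each list the percent of soleus-separated regions it called minus the percent of vastus intermedius-separated regions was taken. E18.5 gastrocnemius scored 13.5, 9.26 and 2.36 points and E18.5 vastus lateralis 0.927, -2.74 and -3.91 points. The means were 8.39 ± 5.64 and -1.91 ± 2.52 (SD, n = 3 each), 10.3 points apart, with gastrocnemius higher in 3 of 3 litters and no overlap. The exact permutation test gave p = 0.1 (two-sided), the smallest that 3 against 3 allows, and 0.25 with litters paired, again the smallest possible. With the first 115333 rows the difference was 10.1 points. The 4 muscles came from the same litters, so this is not a test in other animals.

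Adult soleus and adult vastus intermedius did not divide in the same way. Adult soleus scored 3.43, 5.99 and 4.33 points and adult vastus intermedius 2.62, 7.40 and 4.46, with means of 4.59 ± 1.30 and 4.83 ± 2.41 (SD, n = 3 each). The difference of -0.24 points had an exact permutation p of 0.9, and it turned to 1.83 points (exact permutation p = 0.5) with the first 115333 rows. Adult gastrocnemius scored 5.22, 1.76 and 6.19 points and adult vastus lateralis 5.33, 0.595 and 3.62, with means 1.21 points apart (exact permutation p = 0.6). Single regions that kept both sides were few: 14 of the 1114 soleus regions were in 3 gastrocnemius and 0 vastus lateralis lists and 6 the reverse, and among the 1394 vastus intermedius regions these were 17 and 15. Of all 34379 regions called in exactly 3 lists, 583 and 255 had these patterns. In the adult, 13 soleus regions were in 3 soleus and 0 vastus intermedius lists and 7 the reverse. Among the vastus intermedius regions these adult patterns numbered 12 and 11. How often all regions called in exactly 3 lists had the adult patterns was not measured.

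**Figure D4:**
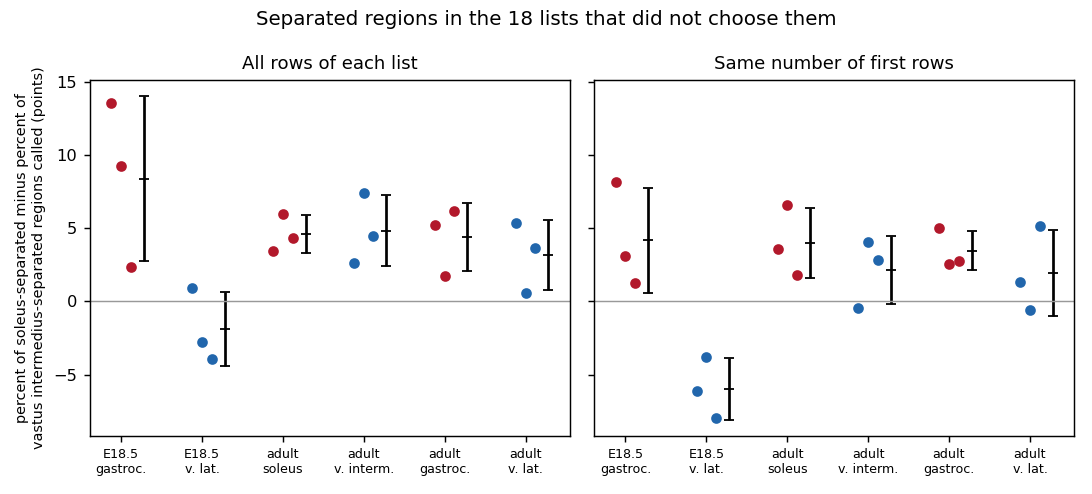
Percent of soleus-separated minus percent of vastus intermedius-separated regions called, in points, for each of the 18 other lists (calf muscles and soleus red, thigh muscles blue), with the mean and SD in black, for all rows and for the first 115333 rows. E18.5 gastrocnemius (8.39 with full lists) lies above E18.5 vastus lateralis (-1.91), and the adult pairs overlap.

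Lists of the same muscle overlapped about as much as lists that shared neither muscle nor litter. Overlap of 2 lists, the share of the regions of either that both call, averaged 0.338 for the same litter and other muscle (3 pairs), 0.305 for the same muscle and other litter (6 pairs) and 0.302 for pairs that shared neither (6 pairs). Soleus 1 and vastus intermedius 1 of litter 1 overlapped most, at 0.411, whereas the pairs of litters 2 and 3 stood at 0.307 and 0.297. With the first 115333 rows the 3 means were 0.391, 0.362 and 0.355, and the same-litter pairs of litters 1 to 3 stood at 0.485, 0.378 and 0.311. File dates put litter 1 apart from litters 2 and 3, for both muscles alike, and what the dates stand for is not stated. Lists held 129754, 228137 and 120387 peaks in soleus and 175295, 204599 and 142580 in vastus intermedius, means of 159426 ± 59690 and 174158 ± 31025 (SD, n = 3 each; exact permutation p = 0.8).

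**Figure D5:**
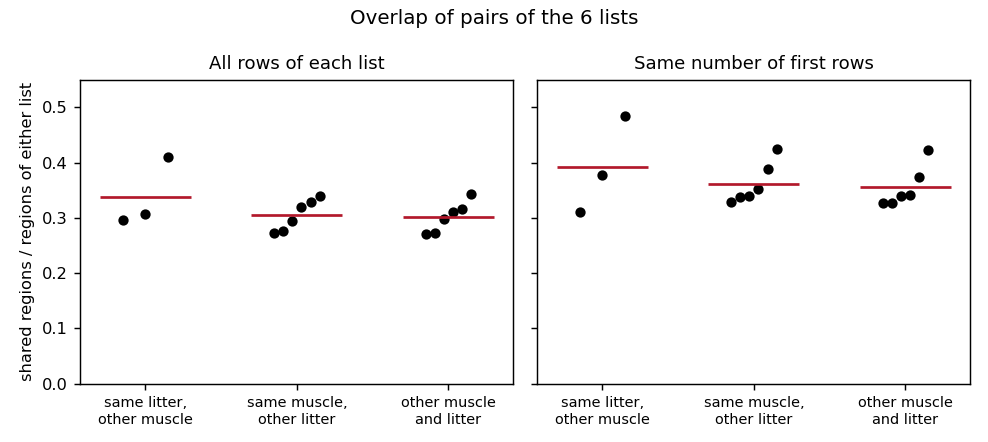
Share of regions called by both lists among those called by either, for the 15 pairs of the 6 E18.5 lists by what the pair shares, with the mean as a red line, for all rows and for the first 115333 rows. The pairs of the same muscle (mean 0.305 with full lists) lie among those that share neither muscle nor litter (0.302).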

How the data were processed

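ATAC-seq peaks of 24 mouse muscle libraries were analysed as deposited: each of the authors' lists has 3 columns, chromosome, start and end on mm10, with no value. Lists were called per library. The submitters' processing notes name MACS2 2.1.1, Bowtie2 2.4.4 and bedtools 2.25.0, besides Trimmomatic 0.39.0, FastQC 0.11.5, SAMtools 1.14.0 and Picard. No source used here gives thresholds or reads per library, and list length stands in for depth.

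Autosomal, X and Y peaks of the 6 lists were merged as bedtools merge does, and a list called a region by an overlap of 1 bp. Genes were 34614 protein-coding and lncRNA genes of RefSeq GRCm38.p6, without strand or exons, so introns, exons and UTRs were not told apart; loci of neighbours can share regions. Called regions per locus, with at least 12 calls over the 6 lists, were scaled to the called regions of the list, taken to log2 with a prior count of 1 and tested with limma 3.58.1 (R 4.3.3) without a block; the threshold was an adjusted p of 0.05. The limma p-values measure the spread between the 3 lists of a muscle, each from 1 litter, which includes differences between libraries. Exact permutation p-values of adult lists concern the spread between 3 animals. The litter numbers pair the samples, since both muscles of a number share a litter; their deviations correlated at 0.150, 0.170 and 0.251 in litters 1 to 3. The code was tested on simulated data.

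The comparison, the 19 gene lists (322 genes, 10 programmes and 9 marker lists) and the 34 fixed loci were chosen with earlier results of these data known. Named were the fixed loci, the 10 loci per muscle with the most separated regions and with the largest t, listed genes with 2 separated regions, and up to 6 regions per muscle separated under 3 settings. Promoter windows, loci in other muscles, and genes without overlap were chosen after their values were seen. Alternatives were list rows, cover, merging, autosomes, flank, prior count, filter, scaling, block and leaving out lists. Some loci that these rules name are not reported here.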

Additional observations from a re-analysis of the deposited data

How the results depend on the processing

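Read depth is unknown, so a missing call limits every count. Soleus-separated regions numbered 480 with the first 57666 rows. Regions separated in vastus intermedius numbered 789 with the first 115333 rows, 431 with the first 57666 and 768 at 50% cover. Shares near a gene end were 17.5% for soleus and 9.98% for vastus intermedius with the first 57666 rows, and 20.4% and 15.1% within 2.5 kb. With the first 57666 rows limma called 1 locus, Tfap2e, higher in soleus (log2 ratio 0.99, SE 0.024, adjusted p = 0.0023). That call rests on few regions, 3, 3 and 3 in soleus and 1, 1 and 1 in vastus intermedius. Equal counts within each muscle left little spread, where the median SE over loci was 0.194. The adult soleus minus adult vastus intermedius difference of -0.24 points turned to 1.83 with the first 115333 rows, 3.51 with the first 57666, 0.375 at 50% cover and 0.342 without 1 animal, the range over animals left out being -0.768 to 0.342. Leaving out 1 list or both lists of 1 litter moved the difference in list length between -49087.5 and 4787.5 peaks, and turned its direction at 672.5, 104, 488.5 and 4787.5. Leaving out lists in these ways also relaxes the rule, which gave 1625 to 10078 soleus and 2087 to 9368 vastus intermedius regions, and 0 loci called each time. With the replicate block (litter), 0 loci passed, and paired exact permutation p was 0.75 for list length; the block changed no other call. The cause of these changes was not tested.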
